A study of Mus musculus with 6 samples.

Results

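In all, 10 genes of lipid uptake, storage and cholesterol efflux were followed in cultured mouse dendritic cells, the antigen-presenting cells that take up material and show it to T cells. They were picked by gene symbol from general knowledge, with earlier results of these data known, and are 10 of the 54532 genes in the count table. By role they are the lipoprotein particle protein Apoe, the lipase Lpl, the uptake receptor Cd36, the fatty acid carriers Fabp4 and Fabp5, the droplet coat protein Plin2, the efflux transporters Abca1 and Abcg1, and the nuclear receptors Nr1h3 and Pparg. The set is therefore wider than uptake and efflux alone. RNA-seq had been performed on 3 control libraries and 3 libraries of cells treated with DB2313, a small molecule that the study used to inhibit Spi1. Spi1, also called PU.1, is a transcription factor of macrophages and dendritic cells. The strain, sex and age of the mice, a vehicle for the controls, the dose and the duration of exposure are absent from the labels, and nothing stated whether the libraries came from separate cultures or animals, so the p-values measure the spread between these libraries only. The cells are dendritic by their labels but are called macrophages in the study, and every direction rests on reading the table columns named after Spi1 as the DB2313 libraries.

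Myeloid cells take up lipid as lipoprotein particles through scavenger receptors such as Cd36, and as fatty acids that Lpl releases from triglyceride-rich particles. Within the cell, Fabp proteins carry fatty acids, and surplus lipid is kept in droplets that Plin2 coats. Cholesterol leaves through Abca1, which loads it onto lipid-poor apolipoproteins, and Abcg1, which passes it to mature high-density lipoprotein. Apoe, secreted by the cell, accepts cholesterol and is a ligand of lipoprotein receptors. Nr1h3, also called LXR alpha, is switched on by oxidised cholesterol and drives Abca1, Abcg1 and Apoe, while Pparg is switched on by fatty acids and drives Cd36, Fabp4 and Plin2. Cells that take up more cholesterol than they release become foam cells, the lipid-laden cells of atherosclerotic plaques.

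The libraries held 16146743 to 19764677 counts, and the low-count filter kept 14174 genes, all 10 lipid genes among them. Pairs of libraries of one group differed by more than sampling noise, with a chi-square per degree of freedom of 4.77 to 5.28 among control and 7.43 to 17.7 among DB2313 libraries. The pair farthest apart was DB2313 replicates 1 and 3. The dendritic cell markers Flt3, Zbtb46 and H2-Ab1 and the macrophage markers Csf1r and Lyz2 were all present, whereas the dendritic cell marker Cd209a had at most 4 counts in any library. The 15 dendritic cell markers summed to 12314 to 12599 CPM (counts divided by the TMM-adjusted library size) in control and 10585 to 12330 CPM with DB2313. Spi1 itself was measured at 380.4, 345 and 371 CPM in control and at 349, 328 and 309 CPM with DB2313. Its log2 fold change was -0.15 ± 0.07 (SE), which did not pass the test (edgeR adjusted p = 0.206) but did with an offset for gene length (-0.18, edgeR adjusted p = 0.0438). This transcript level alone does not show whether Spi1 was inhibited.

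With DB2313, 7 of the 10 lipid genes fell, 1 rose and 2 did not pass the test at an adjusted p under 0.05 (edgeR quasi-likelihood test, Benjamini-Hochberg over all genes tested). Both efflux transporters, Apoe, Lpl, both fatty acid carriers and Plin2 were the genes that fell, Cd36 was the gene that rose, and Nr1h3 and Pparg were the genes not called. The background of this comparison was 10.6% of the tested genes called in either direction, 5.94% lower and 4.66% higher. The median log2 fold change of the 10 genes was -0.41, against 8.2e-04 over all genes tested. The CPM ranges of the groups were separate for 8 of the 10 genes and for 27.4% of all tested genes. Together the 10 genes took 0.277 to 0.286% of the counts of a control library and 0.212 to 0.241% of those of a DB2313 library. In these bulk libraries, fewer cells of a type and less RNA per cell cannot be told apart.

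Markers of macrophages moved with the lipid genes. Of 15 macrophage markers, 10 fell and 1, Fcgr1, rose, against 5.94% of all tested genes lower and 4.66% higher. The summed level of the 15 markers was 10478 to 11901 CPM in control and 9299 to 10213 CPM with DB2313, without overlap. Most of that sum was Lyz2, which was not called (edgeR adjusted p = 0.218, group means 8751 CPM for control, 7887 CPM for DB2313). The sum therefore mainly follows Lyz2 and not the 10 markers that fell. Msr1 is on this list and is also read as an uptake receptor. Of 14 tested dendritic cell markers, Itgax, Irf4 and Batf3 fell, and 4 of 11 neutrophil and 2 of 8 tested mast cell and basophil markers rose. The neutrophil list summed to 4787 to 5265 CPM in control and 5178 to 6465 CPM with DB2313. For the mast cell and basophil list the sums were 2472 to 2671 and 2515 to 3028 CPM, and for 10 T cell markers 283 to 337 and 281 to 415 CPM. The part of these marker shifts in the values of the lipid genes was not tested. Fabp4, Pparg, Lpl, Plin2 and Cd36 are also abundant in fat cells, and of 12 adipocyte markers 6, Lep and Retn among them, had at most 3 counts in every library, while Adipoq had at most 10 and Plin1 at most 8. Lipe, a lipase that myeloid cells also express, was the exception, with 61.2 ± 1.81 CPM in the control group and 60.4 ± 6.82 CPM in the DB2313 group (SD, n = 3 each), and made up nearly all of the list sum of 60.2 to 63.3 and 53.6 to 65.6 CPM. Cd36 and Fabp4 are also found in capillary endothelium, whose 10 markers summed to 94.1 to 102 CPM in control and 96.1 to 109 CPM with DB2313, with none called. Pecam1 and Vwf, at 48.9 and 46.9 CPM on average in control, made up nearly all of that sum. On the same list, 3 genes, Cldn5, Emcn and Gpihbp1, had at most 3 counts in every library, Tek at most 5 and Cdh5 at most 12.

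**Figure D1:**
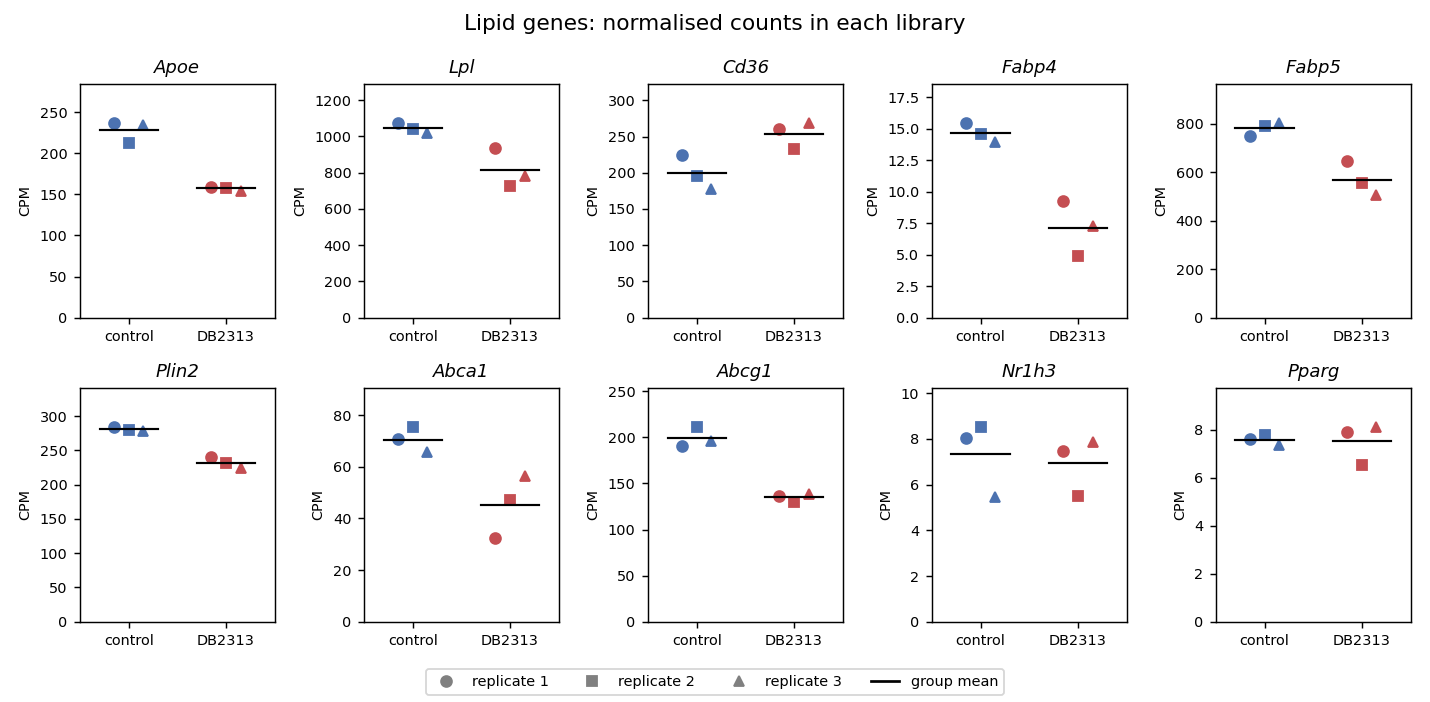
CPM (vertical axis, from 0, scaled to each gene) of the 10 lipid genes in each of the 3 control (blue) and 3 DB2313 (red) libraries, with a marker per replicate and a black line at the group mean. The groups are separate in 8 panels, with DB2313 lower in 7 and higher in that of Cd36, and overlap in those of Nr1h3 and Pparg.

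The efflux transporters come first. Abca1 (ENSMUSG00000015243, chr4:53030787-53159895, minus strand, GRCm38) lay at 70.6, 75.5 and 65.5 CPM in control replicates 1 to 3 and at 32.5, 47.0 and 56.4 CPM in DB2313 replicates 1 to 3. All DB2313 libraries were below all control libraries, but they differed widely among themselves, with replicate 1 the lowest. The means were 70.5 ± 4.96 and 45.3 ± 12.03 CPM (SD, n = 3 each), and the log2 fold change was -0.64 ± 0.14 (SE, 95% interval -0.94 to -0.33, edgeR adjusted p = 0.00901). Without control replicate 2 the log2 fold change was -0.58 and the edgeR adjusted p rose to 0.0608.

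Abcg1 (ENSMUSG00000024030, chr17:31057698-31115777, plus strand) had 190.5, 211 and 196 CPM in control and 137, 130.3 and 138 CPM with DB2313. Here the libraries of each group lay close together and the groups were far apart. Abcg1 fell from 199 ± 10.9 to 135 ± 4.27 CPM, a log2 fold change of -0.56 ± 0.07 (SE, 95% interval -0.71 to -0.41). This was the smallest p of the 10 genes (edgeR adjusted p = 1.27e-04). The ratio of Abca1 to Abcg1 counts within a library was 0.335 to 0.371 in control and 0.238 to 0.407 with DB2313, so the ranges overlapped (exact two-sided permutation test, p = 0.9).

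Apoe (ENSMUSG00000002985, chr7:19696109-19699188, minus strand) stood at 237, 212 and 234 CPM in control and at 159, 158 and 155 CPM with DB2313. The DB2313 libraries were nearly level, and the lowest control library was well above them. Apoe fell by 31.0%, from 228 ± 13.6 to 157 ± 2.46 CPM (SD, n = 3 each), with a log2 fold change of -0.54 ± 0.07 (SE, 95% interval -0.68 to -0.39, edgeR adjusted p = 1.67e-04). Apoe and both transporters are known targets of LXR, so a promoter window each of Apoe and Abca1 is shown here, with 1 of Cd36, the gene that rose. Each is the run of 250 bases before an annotated start (RefSeq, GRCm38.p6, minus strand), written 5′ to 3′. Apoe had 3 such starts, and the window of the outermost is shown. The 1 Cd36 start lies inside the gene interval given for Cd36 below, so its window precedes an inner start. Capitals mark the ETS core GGAA, which Spi1 binds, on either strand, the nuclear receptor half-site AGGTCA on either strand and, in Abca1 alone, the imperfect repeat TGACCG and TAACC with its spacer of 4 bases. These 3 motifs share no base in the windows shown.
Abca1, chr4:53159896-53160145: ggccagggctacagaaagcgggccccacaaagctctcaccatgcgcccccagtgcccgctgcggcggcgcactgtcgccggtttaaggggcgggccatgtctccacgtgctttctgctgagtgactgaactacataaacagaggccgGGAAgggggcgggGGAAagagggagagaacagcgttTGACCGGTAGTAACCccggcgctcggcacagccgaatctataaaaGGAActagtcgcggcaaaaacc
Apoe, chr7:19699189-19699438: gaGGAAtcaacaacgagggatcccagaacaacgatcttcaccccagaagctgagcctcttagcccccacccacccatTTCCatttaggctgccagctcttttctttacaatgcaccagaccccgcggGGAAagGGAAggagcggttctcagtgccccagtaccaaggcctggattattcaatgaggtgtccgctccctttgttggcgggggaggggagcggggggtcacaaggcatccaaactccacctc
Cd36, chr5:17835897-17836146: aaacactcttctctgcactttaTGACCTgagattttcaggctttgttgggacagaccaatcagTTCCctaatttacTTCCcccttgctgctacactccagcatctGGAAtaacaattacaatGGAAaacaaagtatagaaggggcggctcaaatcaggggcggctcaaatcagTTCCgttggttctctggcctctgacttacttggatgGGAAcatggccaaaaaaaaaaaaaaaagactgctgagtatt

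The imperfect repeat began 67 bases before the Abca1 start and is of the kind through which LXR is known to act. The letters searched were those of the Abca1 promoter itself, so the match there was given, and they were in 4 of the 32851 promoter windows of the same length (0.0122%). The GGAA core was present in 10 of the 11 windows of the 6 lipid genes with an entry, but also in 93.4% of all windows. The 11 windows are not independent, as those of Nr1h3 overlap each other and so do some of Apoe. The longer Spi1 site GAGGAAGT, present in 2.44% of all windows, was in none of the 11. AGGTCA was in 4 of the 11, belonging to Cd36, Plin2 and Pparg, against 14.0% of all windows, and no window of these genes held 2 copies spaced by 4 or by 1 bases. A match describes these letters only, and the windows reach no enhancer. Lpl, Fabp4, Fabp5 and Abcg1 had no entry.

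Lpl (ENSMUSG00000015568, chr8:68880491-68907448, plus strand) had 1076, 1041 and 1019 CPM in control and 935, 725 and 779.8 CPM with DB2313. The groups were separate, and DB2313 replicate 1 came nearest to the controls. Lpl fell from 1045 ± 28.7 to 813 ± 109 CPM (log2 fold change -0.36 ± 0.08 SE, 95% interval -0.54 to -0.18, edgeR adjusted p = 0.0118). The call was lost without control replicate 1, control replicate 2 or DB2313 replicate 2, with edgeR adjusted p-values of 0.0702, 0.0638 and 0.106, and with an offset for gene length, at a log2 fold change of -0.28 (edgeR adjusted p = 0.0549). A stretch of up to 184 bp of the Lpl transcript matched 44 other genes at 95.1% identity for the longest, so a part of its reads could be shared.

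Cd36 was the gene that moved the other way. It is a scavenger receptor that takes up oxidised lipoprotein and long-chain fatty acids. Cd36 (ENSMUSG00000002944, chr5:17781690-17888801, minus strand) lay at 225, 196 and 178 CPM in control and at 259.8, 233 and 269 CPM with DB2313. The groups did not overlap, although control replicate 1 and DB2313 replicate 2 were close. Cd36 rose by 27.2%, from 199.5 ± 23.9 to 254 ± 18.9 CPM, a log2 fold change of 0.35 ± 0.09 (SE, 95% interval 0.16 to 0.53, edgeR adjusted p = 0.0190). The call was lost without control replicate 2 (log2 fold change 0.34, edgeR adjusted p = 0.0918) and without control replicate 3 (0.27, edgeR adjusted p = 0.121).

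The fatty acid carriers lie on chromosome 3. Fabp4 (ENSMUSG00000062515, chr3:10204088-10208576, minus strand), best known from fat cells and macrophages, had 15.5, 14.6 and 13.9 CPM in control and 9.29, 4.86 and 7.27 CPM with DB2313. The groups did not overlap, and the values rest on 97 to 252 counts per library. Fabp4 fell by 51.7%, from 14.7 ± 0.79 to 7.14 ± 2.22 CPM (log2 fold change -1.05 ± 0.19 SE, 95% interval -1.46 to -0.64, edgeR adjusted p = 0.00238), the largest fitted change of the 10 genes. Its value ranged from -1.28 without DB2313 replicate 1 to -0.82 without DB2313 replicate 2.

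Fabp5 (ENSMUSG00000027533, chr3:10012548-10016607, plus strand), the carrier of wider expression, had 749, 791 and 806 CPM in control and 645, 558 and 506 CPM with DB2313. All DB2313 libraries were again below all control libraries. Fabp5 fell from 782 ± 29.4 to 569.6 ± 70.1 CPM, a log2 fold change of -0.46 ± 0.08 (SE, 95% interval -0.63 to -0.28, edgeR adjusted p = 0.00215). In the annotation, 3 other genes matched a stretch of Fabp5 of up to 409 bp, at 98.3% identity for the longest. They had at most 95 counts in a library against at least 8424 for Fabp5. The ratio of Fabp4 to Fabp5 counts was 0.0173 to 0.0207 in control and 0.00872 to 0.0144 with DB2313, so Fabp4 lay lower relative to Fabp5 in every DB2313 library. The exact two-sided permutation test gave p = 0.1, the smallest that 3 against 3 libraries allow, and 0.3 when adjusted over the 6 ratios compared.

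Plin2 (ENSMUSG00000028494, chr4:86648386-86670060, minus strand), the coat protein of lipid droplets, had 284, 281 and 278 CPM in control and 241, 232 and 224 CPM with DB2313. The change was small, but both groups were tight. Plin2 fell by 17.4%, from 281 ± 3.16 to 232 ± 8.43 CPM (log2 fold change -0.28 ± 0.07 SE, 95% interval -0.42 to -0.14, edgeR adjusted p = 0.0128). The direction stayed in every omission of a library, but the edgeR adjusted p was 0.0646, 0.0698 and 0.0630 without control replicates 1 to 3 and 0.0879 without DB2313 replicate 2. Within each library, the ratio of Cd36 to Plin2 counts was 0.639 to 0.791 in control and 1.003 to 1.204 with DB2313, without overlap (exact two-sided permutation test, p = 0.1, the smallest possible, and 0.3 adjusted over the 6 ratios).

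The nuclear receptors were among the scarcest of the 10 transcripts. Nr1h3 (ENSMUSG00000002108, chr2:91184061-91202834, minus strand) had 8.05, 8.53 and 5.46 CPM in control and 7.47, 5.52 and 7.87 CPM with DB2313. Pparg (ENSMUSG00000000440, chr6:115360951-115490399, plus strand) had 7.62, 7.78 and 7.34 CPM in control and 7.89, 6.52 and 8.11 CPM with DB2313. For both genes the groups overlapped. The log2 fold change of Nr1h3 was -0.085 ± 0.21 (SE, 95% interval -0.53 to 0.36, edgeR adjusted p = 0.859), and that of Pparg was -0.017 ± 0.17 (SE, 95% interval -0.37 to 0.34, edgeR adjusted p = 0.969). At 87 to 136 counts of Nr1h3 and 117 to 135 of Pparg per library, the intervals hold 0 and also hold changes as large as those of Plin2 or Lpl. Nr1h3 shares 34 exonic bases with Gm13783 on the same strand. The ratio of Pparg to Nr1h3 counts was 0.912 to 1.34 in control and 1.03 to 1.18 with DB2313 (exact two-sided permutation test, p = 0.9).

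**Figure D2:**
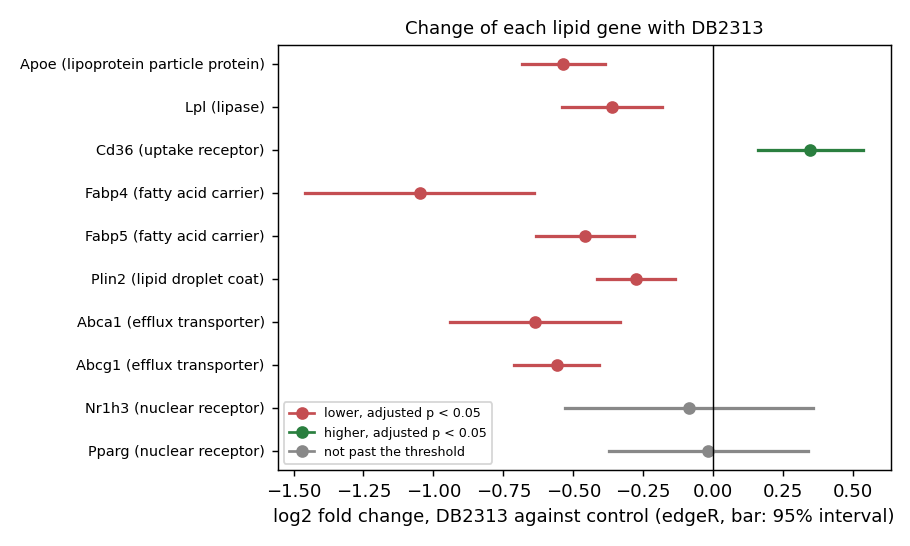
Log2 fold change of DB2313 against control (horizontal axis) of the 10 lipid genes, with 95% intervals derived from the edgeR test statistic, coloured by call. The intervals of Nr1h3 and Pparg hold 0, that of Cd36 lies above 0 and the other 7 lie below it.

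Levels can be compared between genes only per length, and TPM values (transcript abundance scaled by length and library), from the deposited gene lengths, were used for this. In control, Fabp5 was highest at 597 ± 17.4 TPM, followed by Apoe at 290.5 ± 16.9, Lpl at 272 ± 10.5, Plin2 at 218 ± 4.97, Cd36 at 152 ± 19.8 and Abcg1 at 133 ± 7.79 TPM (SD, n = 3). Abca1 followed at 18.6 ± 1.49 TPM, and Fabp4, Nr1h3 and Pparg were lowest at 8.91 ± 0.58, 7.97 ± 1.88 and 6.995 ± 0.28 TPM. Neighbours whose control libraries overlapped were Apoe and Lpl, Cd36 and Abcg1, Fabp4 and Nr1h3, and Nr1h3 and Pparg. With DB2313, Cd36 stood at 191 ± 19.6 TPM and Plin2 at 179 ± 2.98 TPM, their libraries overlapping. By the deposited lengths, Fabp4 at 4.28 ± 1.22 TPM was below Nr1h3 at 7.48 ± 1.49 TPM in every DB2313 library. However, the deposited length of Fabp4, 4489 bp, equals the whole span of the gene, introns included. A spliced transcript is shorter, so the TPM of Fabp4 may be too low and its place in the order is uncertain. The places of the other genes depend on the deposited lengths too.

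The members did not vary alike among the DB2313 libraries. DB2313 replicate 1 was the lowest of the group for Abca1 and the highest for Lpl, Fabp4, Fabp5, Plin2 and, by a small margin, Apoe. DB2313 replicate 2 was the lowest for Fabp4, Lpl, Cd36, Abcg1, Nr1h3 and Pparg. The ratio of Lpl to Apoe counts overlapped between groups, at 4.35 to 4.90 in control and 4.59 to 5.87 with DB2313 (exact two-sided permutation test, p = 0.2). Over the 6 libraries, the genes whose log2 CPM was most like that of Abcg1 among 8984 protein-coding genes were mt-Co1, Ppm1h and Ggta1, with a Pearson r of 0.999, 0.997 and 0.997. Their log2 fold changes were -0.52, -0.23 and -0.47, with that of Ppm1h not called (edgeR adjusted p = 0.0558). These libraries fall into the 2 groups, so such values can largely reflect a difference between the groups.

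**Figure D3:**
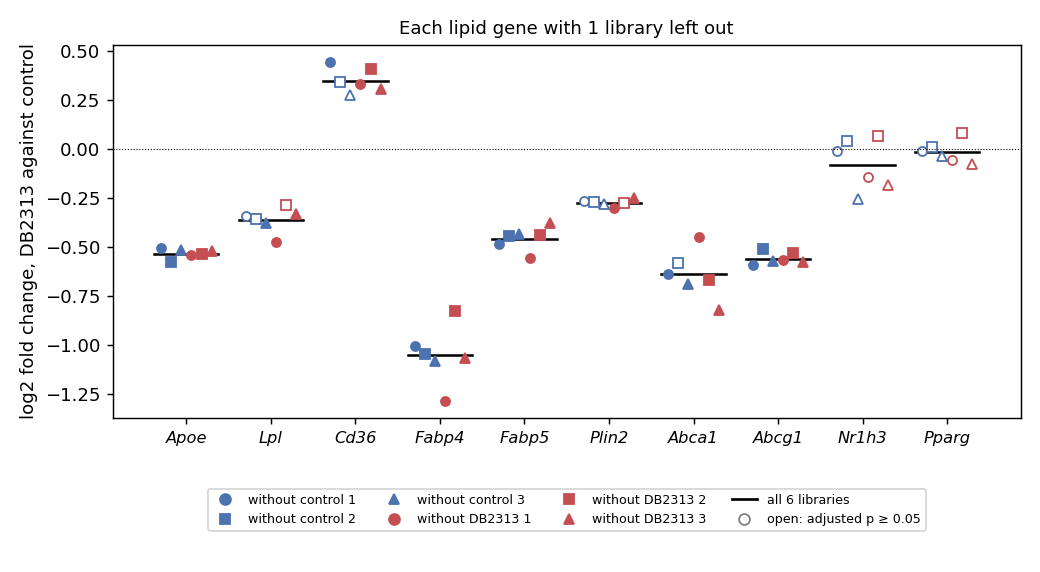
Log2 fold change of DB2313 against control (vertical axis) of each lipid gene with all 6 libraries (black lines) and with 1 library left out (points, coloured by the group and shaped by the replicate left out, open where the edgeR adjusted p was 0.05 or more). Apoe, Fabp4, Fabp5 and Abcg1 stay filled in all 6 omissions, whereas Lpl, Cd36, Plin2 and Abca1 each have open points.

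The other genes of lipid handling were read from 7 lists with 164 genes, of which 142 were tested. Among these, 9 rose and 13 fell, or 15.5% against 10.6% of all genes tested, and their median log2 fold change was -0.015. The decrease of 7 of the 10 genes followed above thus stood beside a median near 0 in the wider set. Among 19 tested nuclear receptors and coregulators, Ncoa2, a coactivator of nuclear receptors, was the only one called, with a log2 fold change of -0.57 ± 0.10 (SE, edgeR adjusted p = 0.00238), whereas 4 genes of this list were called lower without DB2313 replicate 3. Nr1h2, which encodes LXR beta, had a log2 fold change of -7.3e-04 ± 0.07 and Rxra, a partner with which LXR and PPAR receptors pair, one of -0.034 ± 0.08 (SE), neither called. Per length, Nr1h2 stood at 116 ± 3.95 TPM in control, above Nr1h3, and the ratio of Nr1h3 to Nr1h2 counts overlapped between groups (exact two-sided permutation test, p = 0.7). The regulators of sterol and fatty acid synthesis Srebf1 and Srebf2 were at -0.17 and -0.030, not called.

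Of 16 tested LXR targets other than the members, 1 rose and 2 fell. These few calls depended on single libraries and on the settings. None stood in either direction without control replicate 1, control replicate 2 or DB2313 replicate 2. None was higher and 1 lower without control replicate 3, and 4 were lower without DB2313 replicate 3. Over the 18 alternatives listed below, the number called lower changed in at least 10 and the number called higher in 5. Fads1, a fatty acid desaturase, had a log2 fold change of 0.31 ± 0.08 (SE). The transporter Abcg2 had one of -0.70 ± 0.21 (SE), close to the threshold (edgeR adjusted p = 0.0471). Cd5l had one of -2.19 ± 0.56 (SE), from only 3 to 34 counts per library. Mylip, a ubiquitin ligase, was at -0.048 and not called. Of 18 tested PPAR targets, Acsl1, which activates long-chain fatty acids, fell with a log2 fold change of -0.79 ± 0.09 (edgeR adjusted p = 3.43e-05). Of this list 2 genes rose, among them the oxidation enzyme Acaa2, with a log2 fold change of 0.38 ± 0.08 (SE). Angptl4, an inhibitor of Lpl, was at -0.24 ± 0.28 (SE) and not called. The medians of these lists were -0.027 and 0.0052, against 8.2e-04 over all genes tested.

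In the list of uptake receptors, 3 of 20 tested genes were higher and 6 lower, or 45% against 10.6% of all genes tested. The median log2 fold change was -0.11. The list is wider than its name, as Gpr84 and Ffar4 sense fatty acids and Scarb2 is a lysosomal membrane protein. The share is therefore not one of uptake genes alone. Without DB2313 replicate 2 the lower genes numbered 2 and the median was -0.032, and without control replicate 1 or 3 the lower genes numbered 3 each. Marco, a scavenger receptor, rose from 46.4 to 61.5 CPM in control to 116 to 133 CPM with DB2313 (log2 fold change 1.26 ± 0.10 SE, edgeR adjusted p = 1.99e-06). Trem2, a lipid-sensing receptor of macrophages, rose by 0.44 ± 0.07 and the fatty acid receptor Ffar4 by 1.15 ± 0.21 on the log2 scale (SE). Msr1, the class A scavenger receptor for modified lipoprotein, fell from 129 to 158 CPM to 76.5 to 98.2 CPM (log2 fold change -0.67 ± 0.10 SE, edgeR adjusted p = 4.6e-04). Thus Cd36 and Marco rose while Msr1 fell. Gpr84, a receptor of medium-chain fatty acids, had a log2 fold change of -1.52 ± 0.19, Cxcl16 one of -0.39 ± 0.08 and Stab1 one of -0.40 ± 0.09 (SE), and Slc27a3 and Scarb2 were also lower. Scarb1, the receptor of high-density lipoprotein, was at 0.11, not called.

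Downstream of uptake, the shares of genes called were near that of all genes tested. They were 7.69, 8.70 and 9.52% for the 3 lists below, against 10.6% over all genes tested. Of 26 tested genes of lysosomal release, transport and other efflux, Stard5 rose (0.37 ± 0.10) and Cav1 fell (-1.14 ± 0.29, log2 fold change with SE). Neither direction held a call without control replicate 1, control replicate 2 or DB2313 replicate 2, the lower call was also lost without control replicate 3, and 2 genes were lower without DB2313 replicate 3. The genes that free cholesterol from lysosomes were not called, with log2 fold changes of -0.019 for the lipase Lipa, 0.050 for Npc1 and 0.11 for Npc2, nor was Soat1, which esterifies cholesterol, at -0.019. Of 23 droplet and triglyceride genes, the droplet coat gene Plin3 rose from 112 ± 2.13 to 146 ± 12.1 CPM (0.38 ± 0.08) while Plin2 fell, and Mgll, which splits monoglycerides, fell (-0.43 ± 0.08, log2 fold change with SE). Of 21 cholesterol synthesis genes, Tm7sf2 rose (0.88 ± 0.15) and Mvd fell (-0.28 ± 0.08, log2 fold change with SE). No synthesis gene was called lower with library totals, with no filter, or without any 1 of the control libraries or DB2313 replicate 2. The medians of these 3 lists were 0.029, -0.017 and -3.4e-04.

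**Figure D4:**
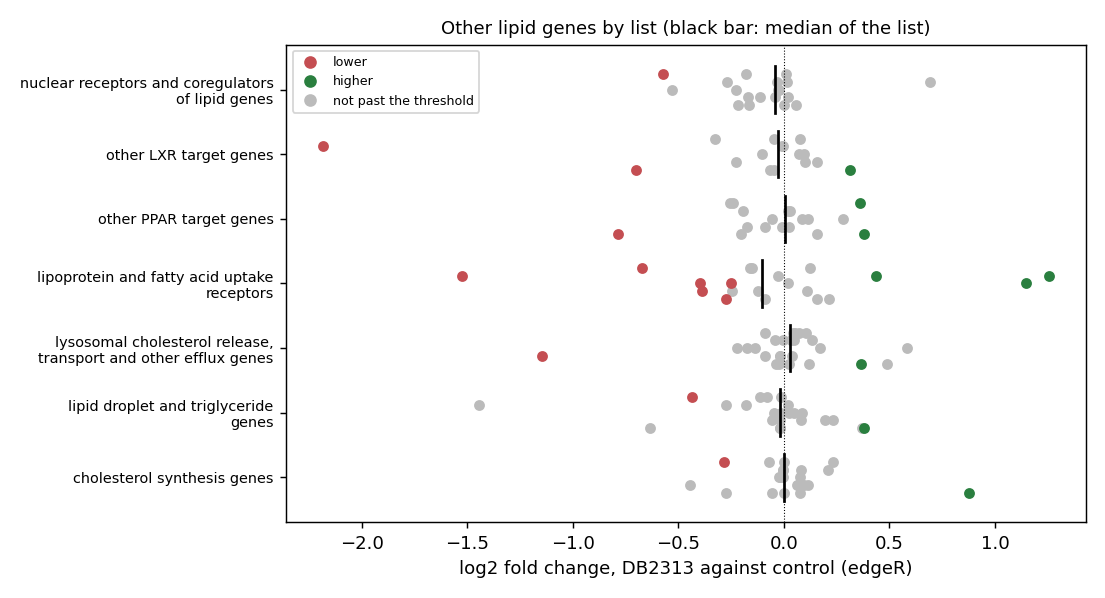
Log2 fold change of DB2313 against control (horizontal axis) of the tested genes of 7 lipid gene lists, a point per gene, coloured by call, with a black bar at the median of each list. Most points lie near 0 and all medians lie between -0.11 and 0.029. The list of uptake receptors, which also includes fatty acid sensors and a lysosomal protein, holds the most coloured points.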

How the data were processed

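RNA-seq counts of 3 control and 3 DB2313 libraries were used, grouped by the treatment label. The values deposited by the authors were unnormalised whole-number counts of reads for each gene, beside gene lengths in bp. The submitters' processing notes list CASAVA 1.8, HISAT2 2.0.5 and featureCounts 1.5.0-p3, whereas the methods of the study name LifeScope. The build, the strand setting and the treatment of reads with several matches were not given in the sources used here, so overlapping and near-identical genes are uncertain. Start and end were equal to those of GENCODE M21 for 98.33% of 54409 common identifiers, and coordinates are given as GRCm38. The columns were matched to samples by name, those named after Spi1 to DB2313.

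The main test was the edgeR 4.0.16 quasi-likelihood test in R 4.3.3 (TMM, filterByExpr, group as the only term, two-sided, Benjamini-Hochberg over 14174 genes, called at an adjusted p under 0.05), which was tested on simulated data. CPM values use TMM-scaled library sizes, and TPM values use the deposited lengths. Ratios of counts were compared by an exact two-sided permutation test. Copies were searched with blastn 2.17.0 among the GENCODE M21 transcripts. Reads carry no molecular identifiers, and errors cover the spread between libraries.

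The 10 genes, the lists, the tests and the 18 alternatives were chosen with earlier results of these data known. Named genes were the 10 members, a set of regulators and enzymes named whether called or not, at most 6 called genes per list by p, and Spi1. For the member with the smallest p, the 3 most correlated protein-coding genes of at least 10 CPM were also named. Stab1, Slc27a3, Scarb2 and the marker genes were named beyond this rule, after their values were seen. The values of 3 listed genes are not reported here. Batches could not be examined, since no label names one. DESeq2 1.42.0 and limma-voom (limma 3.58.1) were alternatives.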

Additional observations from a re-analysis of the deposited data

How the results depend on the processing

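The 18 alternatives were 2 other scalings (RLE and library totals), 3 other gene filters (none, a mean count of at least 10, protein-coding only), 4 other tests (robust edgeR, limma-voom, DESeq2, and glmTreat for changes over 1.5-fold), a gene-length offset with a lowess span of 0.3, a replicate block, the block with the offset, and the loss of each of the 6 libraries. Apoe, Fabp4, Fabp5 and Abcg1 kept their call in 17 of the 18, the exception being glmTreat. That test asks for more than a 1.5-fold change by construction, and under it no lipid gene was called (0 lower and 0 higher), at unchanged values of -0.54 for Apoe, -0.36 for Lpl, 0.35 for Cd36, -1.05 for Fabp4, -0.46 for Fabp5, -0.28 for Plin2, -0.64 for Abca1 and -0.56 for Abcg1. It called 40 genes lower and 46 higher in all, and 1 lower and 1 higher among the listed lipid genes. With the length offset, Lpl was at -0.28 and not called. The causes were not tested.

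Same-numbered libraries did not deviate together (correlations 0.0035, -0.024 and -0.12). With 3 libraries per group, these values cannot show whether the numbers pair the libraries, and no label says so. With the replicate block, Plin2 was at -0.28 (edgeR adjusted p = 0.0534), 6 of the 10 lipid genes were called lower and 1 higher, and 629 genes were lower and 502 higher in all.

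With 1 library left out, log2 fold changes ranged from -0.58 to -0.50 for Apoe, -0.47 to -0.28 for Lpl, 0.27 to 0.44 for Cd36, -1.28 to -0.82 for Fabp4, -0.55 to -0.38 for Fabp5, -0.30 to -0.25 for Plin2, -0.82 to -0.45 for Abca1, -0.59 to -0.51 for Abcg1, -0.26 to 0.063 for Nr1h3 and -0.076 to 0.079 for Pparg. Of the 10 genes, 4 to 7 were called lower, with 4 without control replicate 2, and 0 to 1 higher. In all, 411 to 1311 genes were lower and 328 to 1097 higher, both lowest without DB2313 replicate 2 and highest without DB2313 replicate 3. Of the listed genes, 5 to 20 were lower.

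Signs turned only for genes that were never called. Scaling by library totals gave 0.0063 for Pparg, 0.022 for Nr1h2, 0.0057 for Lipa and 0.0047 for Soat1. Nr1h2 was at 0.0031 with RLE, 0.0090 with no filter, 0.0014 with protein-coding genes and 0.0032 with DESeq2. With the length offset, Srebf2 was at 0.0066 and Soat1 at 0.048, and with the offset and the replicate block at 0.0063 and 0.048. With 1 library left out, ranges were -0.025 to 0.041 for Nr1h2, -0.063 to 0.017 for Rxra, -0.056 to 0.012 for Srebf2, -0.15 to 0.065 for Mylip, -0.14 to 0.069 for Lipa, -0.091 to 0.18 for Npc1 and -0.048 to 0.0060 for Soat1. The counts were lowest for Nr1h3, Pparg and Fabp4.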
